A study of Oryza sativa with 4 samples.

Results

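Auxin response factors (ARFs) and Aux/IAA proteins are the transcription factors and repressors through which the plant hormone auxin controls genes, and their transcripts were followed in leaves of rice (Oryza sativa cv Nipponbare). Genes were chosen by name: every gene whose symbol or synonym in the RefSeq rice gene table is ARF or IAA followed by a number, with or without the prefix Os. This gave 51 genes, 23 ARF and 28 Aux/IAA, and 43 of them have a probe set of their own on the array, out of 17905 genes that do. The 4 samples were 2 arrays labelled OsRR6 overexpressor, from plants transformed with the plasmid pActnos/Hmz-OsRR6, and 2 arrays labelled empty vector control, from plants transformed with pActnos/Hmz. OsRR6 is a type-A response regulator, one of the proteins that dampen the response to the hormone cytokinin, and the comparison is between leaves of plants with and without its transgene. All plants were primary (T0) transformants regenerated from callus, passed over medium with hygromycin-B, grown in hydroponics to heading and sampled as leaf at 75 days after germination. How many plants or independent lines each array stands for is not in the labels, and the p-values reflect the scatter of these arrays, part or all of which may be technical.

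In the textbook pathway, ARF proteins bind auxin response elements in promoters, and Aux/IAA proteins bind the ARFs and keep their targets off with the help of TOPLESS-type corepressors. Auxin joins an Aux/IAA protein to the TIR1/AFB receptor, and the Aux/IAA is then degraded, which frees the ARF. ARFs with a glutamine-rich middle region are known as activators and the others as repressors. Many Aux/IAA genes are themselves switched on by auxin, which closes a feedback loop, and several ARF transcripts are cut by the microRNAs miR160 and miR167 or by trans-acting small RNAs. A transcript level says nothing on how much of these short-lived proteins was present.

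Rice ARF and Aux/IAA genes have been numbered in more than 1 way, and 8 of the 51 genes carry a second number in the gene table. Each is called here by a number that no other gene holds, except ARF1, both of whose numbers are also listed for another gene and which keeps the number left over once the others were named. ARF1 (LOC4327785) is also listed as ARF16, ARF4 (LOC4326957) as ARF2, ARF12 as ARF8, ARF18 as ARF10, ARF23 as ARF1, IAA4 as IAA20, IAA5 as IAA8 and IAA13 as IAA1. No probe set of their own was found for ARF5, ARF6, ARF8, ARF19, ARF21, ARF25, IAA11 and IAA29. Of the activators ARF5, ARF6, ARF12, ARF16, ARF17, ARF19, ARF21 and ARF25, only ARF12, ARF16 and ARF17 could therefore be followed. ARF11 is also counted among the activators, and no gene of that number was found. These roles, like the small RNA targets below, were assigned by number from general knowledge of a single numbering and not from the files, so a gene with a second number may carry the role of another.

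Signals are given on the linear scale of the arrays, which the authors had brought to a common level. A change is the difference of log2(signal + 3.6), overexpressor minus control, with its standard error (SE). A gene is called higher or lower at an adjusted p of 0.05 in limma, fitted to 28629 probe sets. The background level was taken from 69 control probe sets whose transcripts had not been added, and lay at 43.4 and 39.2 on the overexpressor arrays and at 30.0 and 36.8 on the control arrays. Replicates correlated at 0.975 (overexpressor) and 0.988 (control), against 0.931 to 0.938 between groups. The OsRR6 probe set read 2264 and 1989 on the overexpressor arrays and 2559 and 2733 on the control arrays (log2 change -0.32, SE 0.10, adjusted p = 0.0597). It was thus not raised on the arrays labelled overexpressor, and each direction below is that of the label. If the probes lie outside what the transgene transcribes they check nothing, and their position is unknown here. Defining leaf transcripts were bright on all 4 arrays, with CAB2R, a chlorophyll-binding protein gene, at 25944 and 24694 on the overexpressor arrays and 28773 and 31535 on the control arrays. The leaf blade genes RCAA1 and PORA were also bright but called lower. RCAA1 read 12074 and 11454 against 25009 and 25478, and PORA 1791 and 1929 against 4359.1 and 4733.5.

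Of the 39 ARF and Aux/IAA genes bright enough to be tested, 8 rose, 8 fell and 23 missed the threshold. That is 41.0% called, against 28.5% of all tested probe sets (15.4% higher and 13.1% lower). This comparison was not matched for brightness, and each member was represented by the brightest probe set of its gene. Calls made up a larger share when only the brightest 14315 probe sets were tested. Of these 3201 rose and 2815 fell, and 5 members rose and 6 fell. The called members ARF16, IAA4, IAA7, IAA14 and IAA23 were too dim to be tested there, and no other member lost its call. An excess of calls among the members over equally bright probe sets was not tested, and 41.0% beside 28.5% does not show one. The signals of both groups did not overlap for 31 of the 39, against 68.1% of all tested probe sets. A call together with a change of at least 1 on the log2 scale was made for 5 of the 39 (ARF9, IAA4, IAA7, IAA14 and IAA25), against 9.33% of all tested probe sets. The arrays labelled overexpressor therefore differed from the control arrays in many transcripts, and the 2 families are read against that. The split of directions moved with the scaling. After centring on the median 4 members were higher and 12 lower (3016 and 4639 of all probe sets, against 4410 and 3760 as deposited), and after scaling to the hybridisation spikes 14 and 7 (11571 and 2114). The spike scaling moved the median change of all tested probe sets to 0.40, against 0.08 as deposited.

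Among the ARF genes 4 were lower, 2 were higher and 10 of 16 did not pass, with a median change of -0.19 beside 0.08 for all tested probe sets. After spike scaling this median was 0.13. ARF9 fell the most. Its signal was 1533 and 1700 on the overexpressor arrays, against 3328 and 3335 on the control arrays (log2 change -1.04, SE 0.09, adjusted p = 0.000934). The groups lay far apart and each pair of replicates was close. ARF4, a substrate of a GSK3-like kinase that acts on rice grain size, read 4675 and 5186 on the overexpressor arrays and 8252 and 8379 on the control arrays (-0.76, SE 0.08, adjusted p = 0.00188). A second probe set of ARF4 gave 3819 and 4179 against 6879 and 6956 (-0.79, adjusted p = 0.00158), so both probe sets of this gene showed the decrease.

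ARF1 and ARF3 were the other lower ARF genes. ARF1 read 522 and 721 on the overexpressor arrays and 1138 and 1120 on the control arrays (-0.88, SE 0.17, adjusted p = 0.0118). The overexpressor arrays differed from each other here, and both stayed below the controls. ARF3, one of the ETTIN-like ARFs that trans-acting small RNAs cut, read 1135 and 1378 against 1838 and 1704 (-0.50, SE 0.12, adjusted p = 0.0274). After spike scaling the change of ARF3 was -0.19 and did not pass. On all 4 lower ARF genes overexpressor replicate 1 lay farther from the controls than overexpressor replicate 2. The same was seen for 0 of the 2 higher ARF genes, 2 of the 4 lower Aux/IAA genes and 2 of the 6 higher ones. The share among all probe sets was not counted.

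ARF16 and ARF24 rose. ARF16, an activator known in rice roots for its part in the response to phosphate starvation, read 578 and 596 on the overexpressor arrays, against 424 and 365 on the control arrays (0.57, SE 0.14, adjusted p = 0.0276). Its overexpressor signals were close together and above both controls. ARF24, which with ARF23 is known to control the formin gene RMD of the actin cytoskeleton, read 2642 and 2803 on the overexpressor arrays and 2247 and 2114 on the control arrays (0.32, SE 0.09, adjusted p = 0.0393). Both calls ended under median centring (0.47 with adjusted p = 0.063, and 0.22 with adjusted p = 0.144). ARF23 itself read 4199 and 4462 against 3789 and 3954 and did not pass (0.16, 95% interval -0.03 to 0.36), and its second probe set had a change of -0.13 with overlapping groups.

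**Figure D1:**
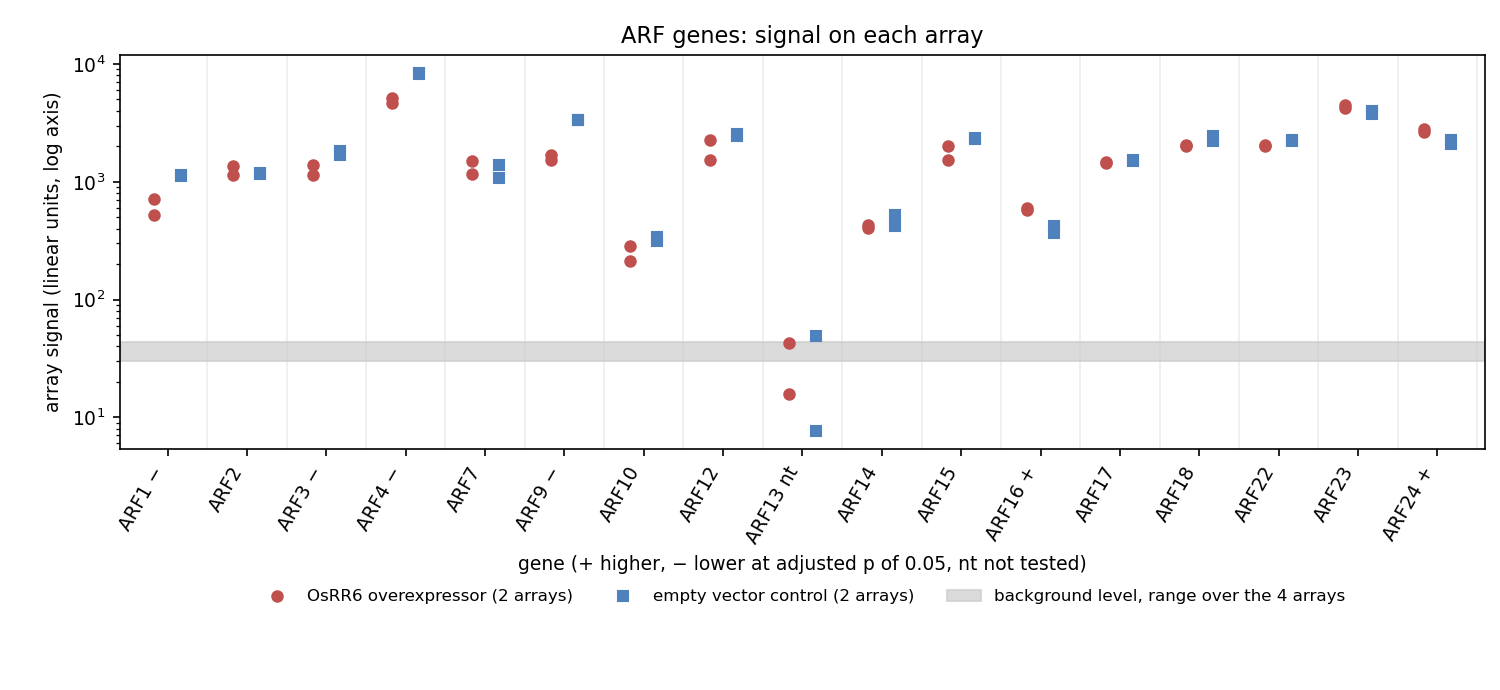
Signal (linear units on a log axis) of the brightest probe set of each of 17 ARF genes on the 2 overexpressor arrays (circles) and the 2 control arrays (squares), with the background level in grey. ARF9, ARF4, ARF1 and ARF3 lie lower and ARF16 and ARF24 higher on the overexpressor arrays, while ARF13 exceeds its background level on 1 array of each group.

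The other ARF genes had changes between -0.43 and 0.16 and did not pass, with 95% intervals that reached as far as -0.90 and 0.54 (ARF10 and ARF7), and for ARF22 the interval ran between -0.34 and 0.07. Their groups did not overlap in 7 cases and overlapped in 3, beside 68.1% of all tested probe sets without overlap. The activators ARF12, known for its part in root elongation, and ARF17, both targets of miR167, had signals of 1516 and 2245 against 2555 and 2431 (ARF12, -0.43, adjusted p = 0.121) and of 1448 and 1468 against 1538 and 1496 (ARF17, -0.06). ARF12 varied between the overexpressor arrays, and ARF17 read nearly alike on all 4. The miR160 targets ARF18 and ARF22 read 2008 and 2060 against 2444 and 2231 (-0.20), and 2025 and 2041 against 2214 and 2260 (-0.14). ARF10, the other miR160 target with a probe set, had a change of -0.41 (adjusted p = 0.172). None of the 3 miR160 targets and of the 2 miR167 targets passed, while 28.5% of all tested probe sets did. Without overexpressor replicate 2 the change was -0.63 for ARF10 and -0.72 for ARF12. Over the fits that leave out 1 array their changes ran between -0.63 and -0.20 and between -0.72 and -0.15. A fit with 1 array left in a group takes the spread from the other group alone.

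Of the 4 targets of trans-acting small RNAs, ARF3 alone passed, with ARF15 at -0.40 (adjusted p = 0.0808), ARF14 at -0.17 and ARF2 at 0.07. The change of ARF15 was -0.61 without overexpressor replicate 2 and -0.20 without overexpressor replicate 1. Beside 13.1% lower and 15.4% higher of all tested probe sets, 4 of the 13 tested ARF genes that are not activators were lower and 1 was higher. Of the 3 activators 1 was higher. The difference between these kinds was not tested. ARF7 had a change of 0.12 with overlapping groups. ARF13 was too dim to be tested, with 15.7 and 42.7 on the overexpressor arrays and 49.2 and 7.7 on the control arrays.

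Among the Aux/IAA genes 6 rose, 4 fell and 13 of 23 missed the threshold, with a median change of 0.01 (0.33 after spike scaling). IAA14 rose the most of all members. It read 325 and 355 on the overexpressor arrays, against 96.1 and 85.9 on the control arrays (log2 change 1.86, SE 0.20, adjusted p = 0.00188). All 4 signals were above background and the groups lay far apart. IAA25 read 1795 and 1331 on the overexpressor arrays and 596 and 686 on the control arrays (1.27, SE 0.17, adjusted p = 0.0033). Its increase was seen on both overexpressor arrays, with replicate 1 above replicate 2.

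IAA7 read 141 and 115 on the overexpressor arrays and 58.0 and 62.1 on the control arrays (1.04, SE 0.29, adjusted p = 0.0377). This dim transcript did not pass under 10 of the 18 alternatives in which it was tested, among them median centring (0.94, adjusted p = 0.0534). IAA30, IAA21 and IAA6 rose by less. IAA30 read 3678 and 4625 on the overexpressor arrays and 2746 and 2786 on the control arrays (0.58, SE 0.12, adjusted p = 0.0159). IAA21 read 9804 and 9808 against 6445 and 7249 (0.52, SE 0.08, adjusted p = 0.00675). The overexpressor signals of IAA21 were nearly equal and its controls differed more. IAA6, which is known in rice for effects on tiller outgrowth and drought tolerance, read 1589 and 1715 against 1289 and 1162 (0.43, SE 0.11, adjusted p = 0.0265), and did not pass under median centring (0.33, adjusted p = 0.0815).

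The lower Aux/IAA genes were IAA4, IAA23, IAA31 and IAA2. IAA23, needed in rice for the quiescent centre of the root tip, read 348 and 336 on the overexpressor arrays and 695 and 644 on the control arrays (-0.96, SE 0.13, adjusted p = 0.00402). This probe set is of a kind that can hybridise to several transcripts. A second set of the gene without that mark gave 297 and 272 against 506 and 494 (-0.81, adjusted p = 0.00983), and the third lay at background on all 4 arrays. With the mean of the 3 sets IAA23 did not pass (-0.61, adjusted p = 0.224), nor did it without control replicate 1 (-0.91, adjusted p = 0.058). IAA2 read 2010 and 2049 against 3280 and 3459 (-0.73, SE 0.08, adjusted p = 0.00216), with close replicates in both groups.

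IAA4 had the largest decrease of the tested members, and its probe sets differed. Its brightest set, also one that can hybridise to several transcripts, read 67.4 and 66.9 on the overexpressor arrays, against 177.2 and 167.2 on the control arrays (-1.31, SE 0.25, adjusted p = 0.0115). Another probe set read 75.8 and 124.6 against 176.4 and 78.8 and its groups overlapped (-0.27, adjusted p = 0.686). The third set was too dim to be tested and read 5.8 and 43.6 against 60 and 72.1 (-1.72). With the mean of the 3 probe sets IAA4 did not pass (-1.10, adjusted p = 0.0955).

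**Figure D2:**
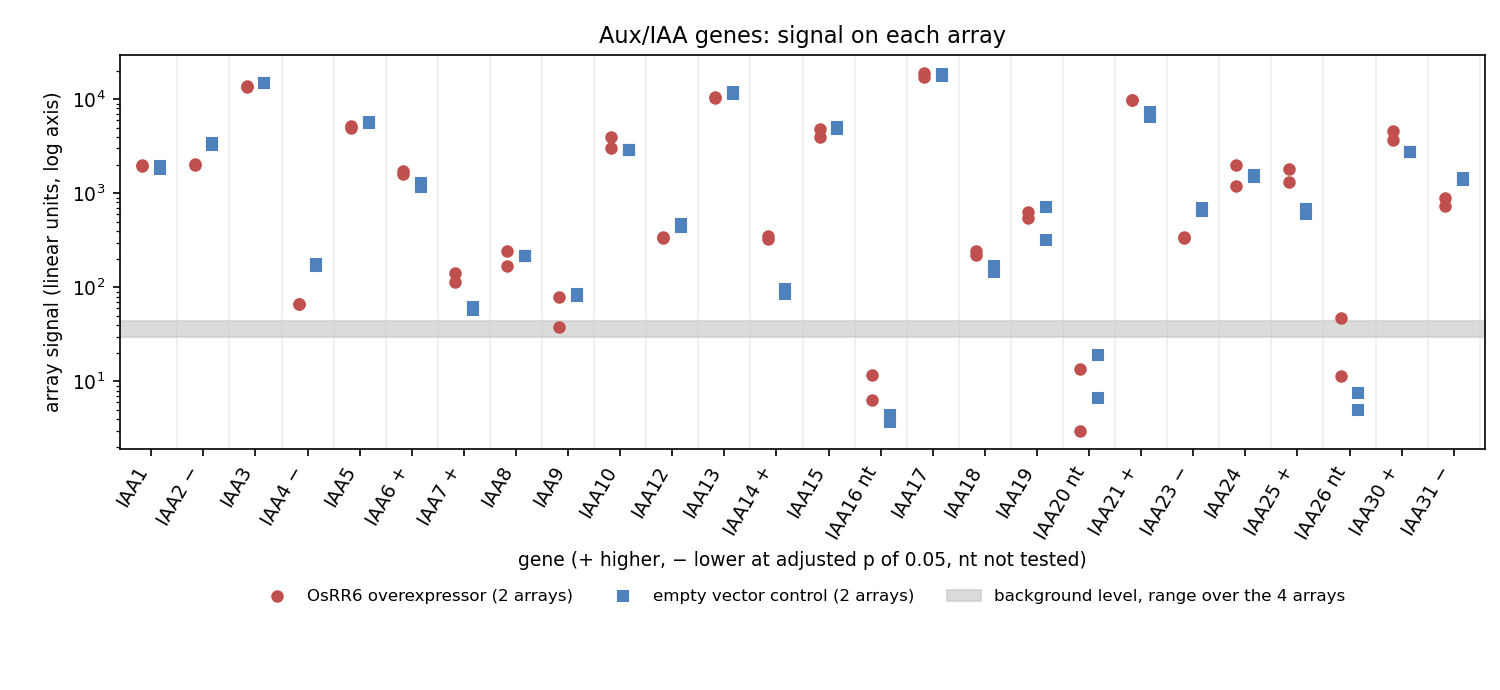
Signal (linear units on a log axis) of the brightest probe set of each of 26 Aux/IAA genes on the 2 overexpressor arrays (circles) and the 2 control arrays (squares), with the background level in grey. IAA14, IAA25 and IAA7 lie clearly higher and IAA4, IAA23 and IAA31 clearly lower on the overexpressor arrays, and the bright IAA17 lies alike in both groups.

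IAA30 and IAA31 stand next to each other in the RefSeq gene table, with 0 protein-coding genes between them, and moved in opposite directions. IAA31 read 737 and 895 on the overexpressor arrays and 1392 and 1463 on the control arrays (-0.81, SE 0.13, adjusted p = 0.00611), while IAA30 rose by 0.58. Both directions were the same under every scaling tried, with 0.89 for IAA30 and -0.50 for IAA31 after spike scaling. A second probe set of IAA31 lay at background throughout, and with the mean of both sets IAA31 did not pass (-0.30, adjusted p = 0.44). The other adjacent pair of the 2 families is IAA11 and IAA12. Only IAA12 has a probe set, with 337 and 344 against 476 and 435 (-0.42, adjusted p = 0.0751). IAA12 passed as lower after median centring (adjusted p = 0.0475), quantile normalization (0.0432) and cyclic loess (0.0388), and not after spike scaling.

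Several bright Aux/IAA transcripts did not pass. IAA17 read 19005 and 17330 on the overexpressor arrays and 17612 and 18381 on the control arrays (0.01, 95% interval -0.17 to 0.20). Its only probe set is also of the kind that can hybridise to several transcripts. IAA3 read 13931 and 13602 against 14835 and 14775 (-0.10, 95% interval -0.27 to 0.06). A second, dim probe set of IAA3, at background on both overexpressor arrays, gave 28.1 and 32.6 against 89.5 and 63.3, and with the mean of both sets IAA3 passed as lower (-0.66, adjusted p = 0.0119). IAA13, in which a stabilising mutation is known to reduce lateral roots, read 10344 and 10625 against 11402 and 11853 (-0.15, 95% interval -0.32 to 0.02). For the brightest probe sets of these 3 genes the intervals lie within 0.32 of 0 on the log2 scale. IAA5 read 5165 and 4974 against 5654 and 5696 (-0.16, 95% interval -0.34 to 0.02). For IAA3, IAA5 and IAA13 the groups did not overlap, as for 68.1% of all tested probe sets. These 3 passed as lower under median centring, while after spike scaling their changes were positive.

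IAA10, which a rice dwarf virus protein is known to stabilise, had a change of 0.28 (adjusted p = 0.171), and IAA18 one of 0.56 (adjusted p = 0.0882). IAA1, IAA8, IAA15 and IAA24 lay between -0.17 and 0.07. Single overexpressor arrays decided some of these values. Without overexpressor replicate 1 the change was 0.48 for IAA10, 0.39 for IAA24 and, in the ARF family, 0.20 for ARF23. Without overexpressor replicate 2 it was -0.30 for IAA15 and -0.35 for IAA24, so the direction of IAA24 turned with the array left out. IAA19 was uneven on the control arrays, with 641 and 552 on the overexpressor arrays and 322 and 708 on the control arrays (0.32, adjusted p = 0.531), and its change was -0.25 without control replicate 1. IAA9, at -0.56 (adjusted p = 0.35), reached background on overexpressor replicate 1. IAA16 and IAA20 lay at background on all 4 arrays. IAA26 exceeded it on overexpressor replicate 1 (47.2, against 11.5 on replicate 2 and 5.0 and 7.5 on the control arrays), and these 3 were not tested.

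**Figure D3:**
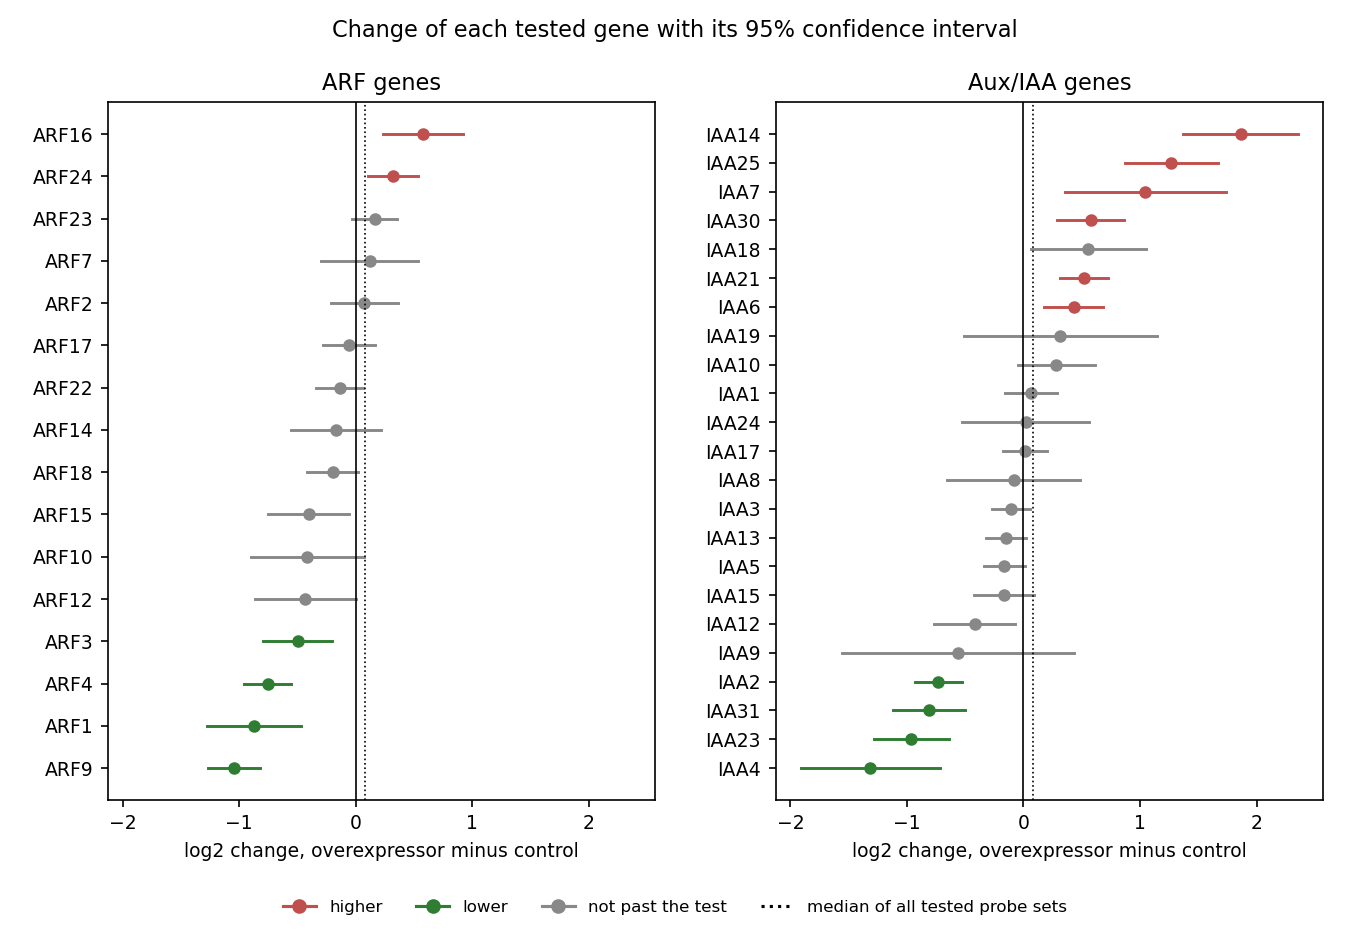
Log2 change (overexpressor minus control) of the 16 tested ARF and 23 tested Aux/IAA genes, each as a point with its 95% confidence interval, beside a dotted line at the median of all tested probe sets (0.08). ARF changes run between -1.04 and 0.57 and Aux/IAA changes between -1.31 and 1.86.

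The calls differed in how firmly they held. ARF4, ARF9, IAA2, IAA14 and IAA25 passed in the same direction under every alternative in which they were tested, and the other 11 called members lost the call under at least 1. None of the 16 called members changed direction. Of the 23 members that missed the threshold 15 passed under at least 1 alternative. Without control replicate 1, 2 members were higher and 4 lower, and without control replicate 2, 3 were higher and 4 lower, with the spread then taken from the overexpressor pair alone (median difference between replicates 0.203 on the log2 scale, against 0.115 in the control pair). Without overexpressor replicate 2, 8 were higher and 13 lower. With 2 arrays against 2 the smallest two-sided p of an exact permutation test is 0.33, so these calls rest on the model of the spread.

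**Figure D4:**
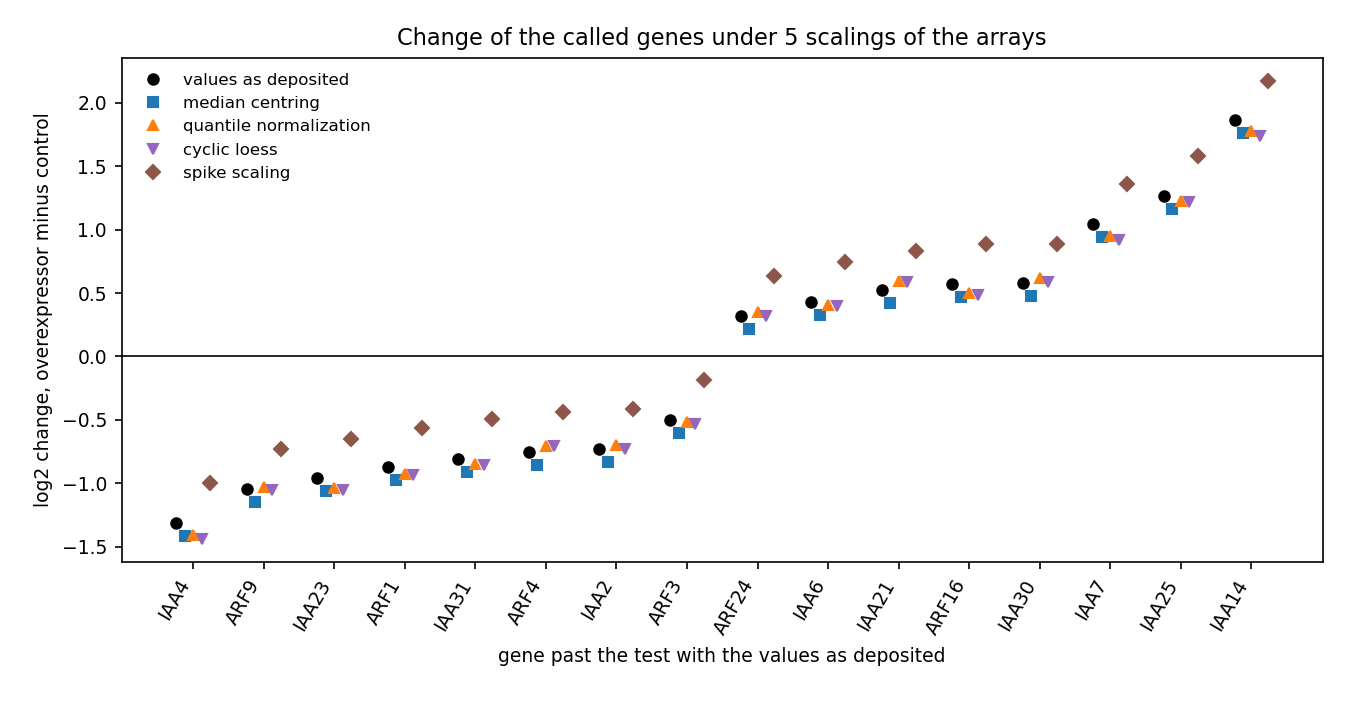
Log2 change (overexpressor minus control) of the 16 called ARF and Aux/IAA genes with the values as deposited, after median centring, quantile normalization and cyclic loess, and after scaling to the hybridisation spikes. Each gene keeps its side of 0, and spike scaling (diamonds) lies above the others throughout, with ARF3 closest to 0 at -0.19.

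The other auxin genes with a symbol in the table were read from a list of receptor, corepressor, synthesis, conjugation, transport and response genes. Of 15 tested, 7 fell, 3 rose and 5 missed the threshold, with a median change of -0.34. That is 66.7% called, against the 28.5% of all tested probe sets (15.4% higher and 13.1% lower) and their median of 0.08. Brightness was not matched in this comparison either. No receptor gene was found by name. Of the TOPLESS-related corepressors, which Aux/IAA proteins recruit, TPR2 rose, with 2902 and 2961 on the overexpressor arrays and 2104 and 1974 on the control arrays (0.52, SE 0.09, adjusted p = 0.00715). Both probe sets of TPR2 are of the kind that can hybridise to several transcripts, and the second also rose (0.56, adjusted p = 0.00903). TPR3 had a change of 0.20 and did not pass, and ASP1 lay at background.

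FIB, the tryptophan aminotransferase gene of auxin synthesis, fell to 246 and 253 on the overexpressor arrays, against 451 and 433 on the control arrays (-0.81, SE 0.15, adjusted p = 0.0105). The 3 tested PIN genes of auxin transport were lower: PIN5C by a log2 change of -2.41 (SE 0.30), PIN5A of -1.48 (SE 0.13) and PIN3A of -0.87 (SE 0.15). This PIN3A probe set is of the kind that can hybridise to several transcripts. A second PIN3A set without that mark had a change of -0.37 with overlapping groups. Among 8 tested GH3 genes, most of which encode enzymes that join auxin to amino acids, GH3-2 (-1.01) and GH3-8 (-0.89) fell and GH3-1 rose (1.14). GH3-2 did not pass after spike scaling (-0.70, adjusted p = 0.0662), with no filter (0.0669), without trend in the spread (0.096) or without either control array (0.0825 and 0.134). GH3-5, listed also as the jasmonate-conjugating JAR1, fell by 0.88 on the log2 scale, and 4 did not pass. SAUR39, a gene known to restrain auxin synthesis and transport in rice, rose to 1726 and 1122 on the overexpressor arrays, against 288 and 282 on the control arrays (2.27, SE 0.21, adjusted p = 0.00104). Without control replicate 1, TPR2, FIB, PIN3A, GH3-8 and GH3-1 missed the threshold as well (adjusted p between 0.0583 and 0.118), as did PIN3A with the mean of its probe sets (-0.62, adjusted p = 0.0651).

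Markers of other cell types moved on the same arrays, on which 15.4% of all tested probe sets were higher and 13.1% lower. Of 5 anther and tapetum markers 4 were lower, and their summed signal was 1141 and 673 on the overexpressor arrays, against 14172 and 14809 on the control arrays, with the tapetum gene RTS at background on both overexpressor arrays. All 4 stem and secondary wall markers were lower (sums of 9049 and 8075 against 11910 and 11931), CESA9 with an adjusted p of 0.0475. A second probe set of CESA4 did not pass (-0.29, adjusted p = 0.0536). Of the 3 markers of meristems and dividing cells PCNA and CYCD3-1 were higher and OSH1 was lower (sums of 3555 and 4181 against 2945 and 3180). A second probe set of OSH1 did not pass (-0.19, adjusted p = 0.322). Of the 3 leaf blade markers PORA and RCAA1 were lower and CAB2R did not pass (sums of 39809 and 38076 against 58141 and 61747). Their part in the ARF and Aux/IAA changes was not tested. In such bulk samples fewer cells of a type and less RNA per cell cannot be told apart.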

How the data were processed

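Leaf RNA of rice (about 10 µg of total RNA, biotin-labelled, per the labels' protocols) was hybridised to 4 Affymetrix rice arrays of 1 colour, of which 2 were labelled OsRR6 overexpressor and 2 were labelled empty vector control. The deposited table holds 1 intensity per probe set and array on a linear scale. For the software behind these deposited values nothing was given in the sources used here. Without the lowest and highest 2% each array had a mean of 500.1, which shows a common scaling by the authors that hides any shift of all transcripts. Precision is limited by the number of arrays.

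The platform annotation gives 1 gene for 22436 probe sets, several for 95 and no entry for 34850. All 17905 genes were found in the RefSeq table of assembly ASM3414082v1, used for names and neighbours only. For each gene the probe set with the brightest mean was used. Changes were computed as log2(intensity + 3.6), the pseudocount being the 10th percentile of the table, and are understated for dim transcripts. The 123 control probe sets and those with a mean log2 value below the median were left out. limma 3.58.1 in R 4.3.3 (lmFit, eBayes with trend) compared the groups, two-sided, with Benjamini-Hochberg adjustment over 28629 probe sets. The fit was tested on simulated data with several models of the spread, and its power depended strongly on the model, of which the one kept was chosen after seeing the recovery. The background level is the 95th percentile of 69 control probe sets.

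Members and lists were chosen with earlier results of these data known. All members are accounted for. Values on all arrays are given for those called and for the 4 brightest others of each family. Of the other auxin genes at most 4 called ones per list are named. Genes that share a symbol with an unrelated gene (OSK1, LAX1, LAX2 and a second BC1) were left out of the lists. The replicate numbers come from the titles, which do not say that a number marks a shared plant or day. Alternatives covered the pseudocount, scaling, filter, spread model, replicate block, each array left out, cross-hybridising probe sets, the mean over probe sets and a threshold of 0.01. Their use for the family medians was added after seeing the data.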

Additional observations from a re-analysis of the deposited data

How the results depend on the processing

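With the values as deposited 2 ARF genes were higher and 4 lower, 6 Aux/IAA genes were higher and 4 lower, and 3 other auxin genes were higher and 7 lower. Without trend in the spread 0 ARF and 3 Aux/IAA genes were higher (2580 and 2461 of all probe sets higher and lower), and at a threshold of 0.01 again 0 and 3 (1572 and 1924). After median centring 0 ARF genes were higher and 8 Aux/IAA genes lower. After spike scaling 10 Aux/IAA and 5 other auxin genes were higher (11571 and 2114 of all probe sets). Of the ARF genes 1 was higher with no filter, with a filter at the 25th percentile and with the replicate number as a block, where ARF24 lost its call. The filter at the 75th percentile also left 1 higher, because ARF16 was too dim to be tested there. With that filter, which leaves out dim genes, 3 other auxin genes were lower. The model of the spread without trend gave 2 lower ARF genes, as did the threshold of 0.01. Without probe sets marked as cross-hybridising, which leaves out those of IAA4, IAA17 and IAA23, 2 Aux/IAA genes were lower. Of the other auxin genes 2 were then higher and 6 lower, with the sets of TPR2 and PIN3A left out. With the mean of a gene's probe sets 2 Aux/IAA genes were lower as well. Both pseudocounts and the robust fit moved no call of a member.

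Over the fits that leave out 1 array, ARF genes numbered 0 to 3 higher and 2 to 7 lower, Aux/IAA genes 2 to 7 and 2 to 6, other auxin genes 1 to 4 and 3 to 7, and all probe sets 1390 to 6138 and 1558 to 5297. A lone array was then assumed to vary like the other group.

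Changes of sign were limited to genes that had not passed. Positive after spike scaling were ARF14 (0.14), ARF17 (0.26), ARF18 (0.11), ARF22 (0.18), IAA3 (0.21), IAA5 (0.15), IAA8 (0.23), IAA13 (0.16), IAA15 (0.14) and GH3-4 (0.022). Negative after median centring were ARF2 (-0.0305), IAA1 (-0.0375), IAA17 (-0.0901) and IAA24 (-0.0845, and -0.012 after cyclic loess). Leaving out 1 array gave ranges of -0.056 to 0.20 for ARF2, -0.075 to 0.31 for ARF7, -0.36 to 0.19 for IAA8, -0.054 to 0.079 for IAA17, -0.25 to 0.88 for IAA19, -0.35 to 0.39 for IAA24 and -0.88 to 0.20 for GH3-11. The causes were not tested.

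The replicate block moved 2 calls of members, those of ARF24 (adjusted p = 0.0636) and IAA7 (adjusted p = 0.0534). Deviations of arrays that share a number correlated at -0.0209, and 2 pairs that share only a number are no pairing. Signal over background limits ARF13, IAA16, IAA20 and IAA26, which with no filter did not pass either (adjusted p between 0.311 and 0.905).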
